A study of Mus musculus with 6 samples.

Results

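The genes described here are those of the 4 mouse Hox clusters, Hoxa, Hoxb, Hoxc and Hoxd, in embryonic stem cells whose Activin/Nodal signal was raised or blocked. They were chosen by symbol alone, as Hoxa, Hoxb, Hoxc or Hoxd followed only by digits. Of 39 such genes in the RefSeq table, 33 had a probe set of their own and are members, out of 18193 genes with a named probe set. Hoxb8 and Hoxd4 appear only in probe sets shared with another Hox gene, and 4 others were not analysed here. One probe set stood for each gene, the one with the highest mean log2 intensity over the 6 arrays.

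RNA came from E14Tg2a, a line of mouse embryonic stem cells that grows without feeders. Every group, controls included, was cultured in N2B27, a medium free of serum, to which LIF (1000 U/ml) and BMP4 (20 ng/ml) were added. The control cells had no further factor, and the others received activin at 10 ng/ml for 2 h, or received SB431542 at 5 µM for 24 h, and each group had 2 single-colour Affymetrix arrays. Activin and Nodal share type I receptors, whose kinase activates Smad2 and Smad3, and SB431542 inhibits that kinase. The treatments differ in length, no vehicle is named for the control cells, and a single line was used. Nothing in the labels ties a group's 2 arrays to separate cultures. The p-values therefore measure the spread between these arrays alone, which may be technical.

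Hox genes encode homeodomain transcription factors that give cells their position along the body axis. Within a cluster they lie in the order in which they are switched on in the embryo, with low-numbered anterior genes at one end and high-numbered posterior genes at the other. In embryonic stem cells the clusters are known as a main target of Polycomb repression, which holds them silent while leaving them open to activation by retinoic acid, Wnt, FGF and TGF-beta family signals during gastrulation. Their promoters are rich in CpG dinucleotides.

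Hoxd8, Hoxd9 and Hoxd10 are 3 neighbouring Hoxd genes whose probe sets were each lower on both SB431542 arrays than on every other array. Hoxb7, Hoxc8 and Hoxc13 shared that order of arrays. Hoxd10 was picked after its values were seen and was at background, as defined below, on every array. Hoxd8 passed no test. Hoxd9 was the only Hox gene to pass either of the 2 fits described below, and it passed 1. The 250 bases before the RefSeq start of Hoxd9 and of its neighbours Hoxd8 and Hoxd10 are printed here for that reason, 5′ to 3′ in build GRCm38.p6, with each CpG in capitals.
Hoxd8, chr2:74704365-74704614, + strand: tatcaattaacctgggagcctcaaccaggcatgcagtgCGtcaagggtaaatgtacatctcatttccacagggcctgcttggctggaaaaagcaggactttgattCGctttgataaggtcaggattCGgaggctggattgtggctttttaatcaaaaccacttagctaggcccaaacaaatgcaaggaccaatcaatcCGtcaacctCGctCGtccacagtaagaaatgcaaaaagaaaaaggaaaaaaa
Hoxd9, chr2:74697513-74697762, + strand: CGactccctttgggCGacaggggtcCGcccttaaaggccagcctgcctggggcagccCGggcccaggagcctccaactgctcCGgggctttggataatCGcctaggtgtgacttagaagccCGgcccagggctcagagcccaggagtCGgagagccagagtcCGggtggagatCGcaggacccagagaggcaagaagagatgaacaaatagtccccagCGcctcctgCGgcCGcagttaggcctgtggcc
Hoxd10, chr2:74691641-74691890, + strand: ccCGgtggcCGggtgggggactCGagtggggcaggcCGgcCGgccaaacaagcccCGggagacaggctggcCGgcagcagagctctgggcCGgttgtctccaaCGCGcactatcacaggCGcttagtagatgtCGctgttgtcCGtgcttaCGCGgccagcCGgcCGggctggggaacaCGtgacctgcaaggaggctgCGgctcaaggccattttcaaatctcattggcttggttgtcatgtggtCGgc
The Hoxd8 stretch holds 6 CpGs at a GC content of 44.4%, that of Hoxd9 13 at 65.2% and that of Hoxd10 20 at 65.6%. RefSeq promoter windows were found for 19 of the 33 members, in 21 windows. Over these the median was 13 CpGs and 59.2% GC, against 6 CpGs and 52.4% GC over all 32851 windows of the same 250 bases. Motifs known from Smad2/3 target genes were searched on both strands. The Smad palindrome GTCTAGAC and the Foxh1 site AATCCACA were in 0 of the 21 windows, against 0.167% and 0.718% of all windows. The shorter CAGA box core, CAGAC, was in 6 of 21 (28.6%) and in 42.2% of all windows. It was in 0 of the 3 printed stretches. None of these motifs is contained in another on either strand, though copies side by side can share letters.

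Most Hox genes were not above background on all 6 arrays. The arrays carry no detection call, so background was read from 27 probe sets for the Bacillus transcripts dap, lys, phe, thr and trpn. These sat at the bottom of the range, with medians from 11 to 13 and highest values from 23 to 34 per array, and were therefore taken as unspiked. The 18 probe sets for the spiked bioB, bioC, bioD and cre transcripts were at 244 or more on every array. A gene is called above background on an array where its intensity exceeds that of all 27. By this measure 10 of 33 Hox genes were above background on all 6 arrays, 8 on some and 15 on none. The share on all 6 was 30.3%, and among all 18193 genes it was 63.6%. On no array at all stood 45.5% of Hox genes and 21.1% of all genes. Intensities of different probe sets do not give relative amounts of transcript, so genes are compared here with background and with themselves. Sums over marker lists, given further below, are set mainly by the brightest probe sets of each list.

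**Figure D1:**
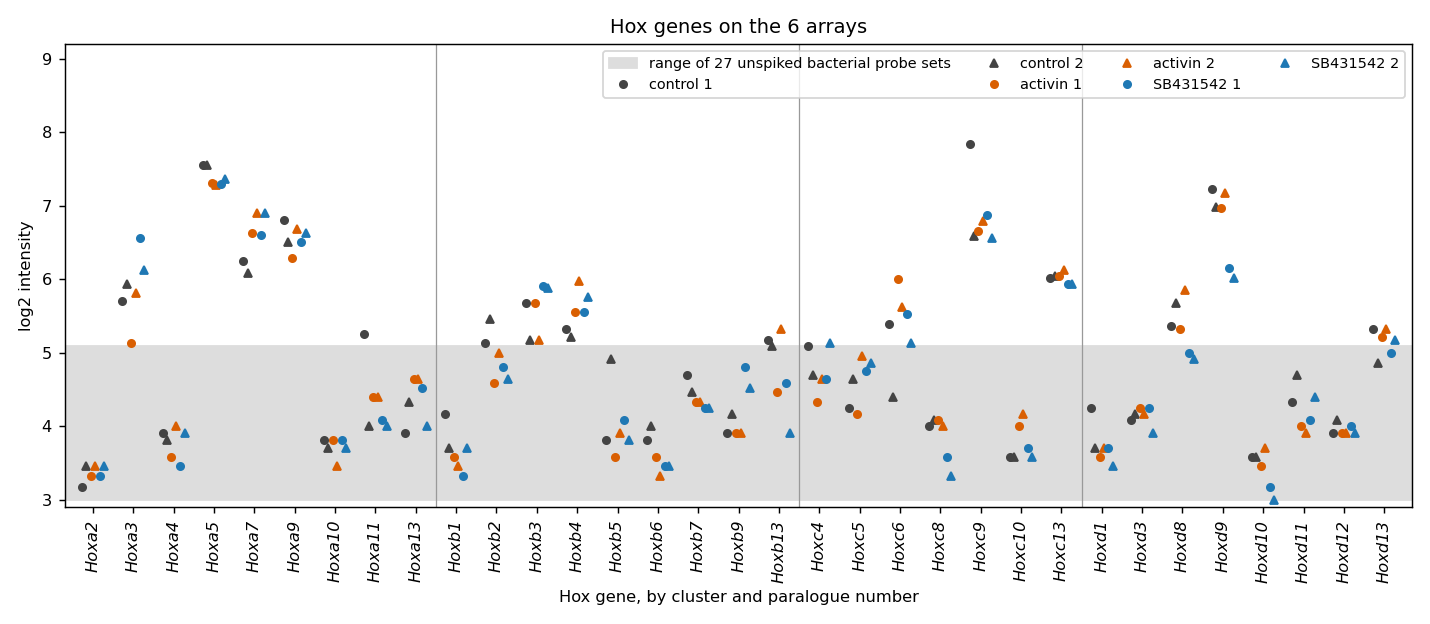
Log2 intensity (y axis) of the probe set of each of the 33 Hox genes (x axis, by cluster and paralogue number) on each of the 6 arrays, with circles for replicate 1 and triangles for replicate 2. The grey band spans the values of the 27 unspiked bacterial probe sets over all arrays, and 10 genes lie above the background of their own array on all 6, among them Hoxd9 with its SB431542 values below the others.

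The 10 genes came from all clusters and from all 3 parts of the axial code. They were Hoxa3, Hoxa5, Hoxa7 and Hoxa9 of 9 Hoxa genes, Hoxb3 and Hoxb4 of 9 Hoxb genes, Hoxc9 and Hoxc13 of 7 Hoxc genes, and Hoxd8 and Hoxd9 of 8 Hoxd genes. By paralogue number they were 2 of 7 anterior genes (1 to 3), 4 of 12 central genes (4 to 8) and 4 of 14 posterior genes (9 to 13). The 15 genes at background throughout include Hoxb1 and Hoxa2, which pattern the hindbrain, Hoxd1, Hoxa10, Hoxc10 and Hoxd10. The number above background differed little between arrays, with 16 and 12 on the control arrays, 14 and 13 after activin and 12 and 14 after SB431542.

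These levels depended on the probe set. Of the 11 Hox genes with 2 or more probe sets, 6 had the brightest above background on all 6 arrays, and 0 of those 6 had another that was. Hoxa5, a factor of lung and neck patterning, read 187 and 187 in control by 1 probe set and 14 and 13 by the other. Its bright probe set carries the _x_at suffix, by which Affymetrix marks probes that may bind other transcripts. Hoxa3, needed for thymus and parathyroid, had 4 probe sets, of which the other 3 stayed between 11 and 29. Hoxa9, Hoxb3, Hoxb4 and Hoxd8 likewise had a dimmer second probe set. With a gene's probe sets averaged, 6 Hox genes in place of 10 were above background on all arrays. The other 4 genes, Hoxa7, Hoxc9, Hoxc13 and Hoxd9, have 1 probe set each.

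The genes beside the clusters and the factors that act on them were mostly above background. In the RefSeq order the nearest protein-coding genes are Skap2 and Evx1 for Hoxa, Ttll6 and Skap1 for Hoxb, Calcoco1 and Smug1 for Hoxc, and Evx2 and Mtx2 for Hoxd. All but Skap1 were above background on all 6 arrays, as were 18 of 20 measured genes in a list of flanking genes. The list of Polycomb genes stood above on all arrays for 23 of 24, among them Mtf2, Eed and Phc1. That of trithorax genes with the H3K27 demethylases Kdm6a and Kdm6b did so for 9 of 9, among them Ash2l, Dpy30 and Wdr5. In the retinoic acid pathway it was 11 of 17, among them Rxrb, Rarg and Rdh10. TALE homeodomain proteins, which bind DNA together with Hox proteins, did so for 6 of 8, and Pbx2, Pknox1 and Pbx3 were among them. All 10 markers of embryonic stem cells were above background on all arrays, with Pou5f1 from 4082 to 6087. Of markers of other cells this held for 5 of 13 of fibroblasts and mesenchyme, 3 of 8 of the neural tube, 4 of 7 of posterior mesoderm, 3 of 8 of extraembryonic endoderm and 2 of 6 of blood. Within bulk RNA, fewer cells with a transcript and less transcript per cell cannot be told apart.

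**Figure D2:**
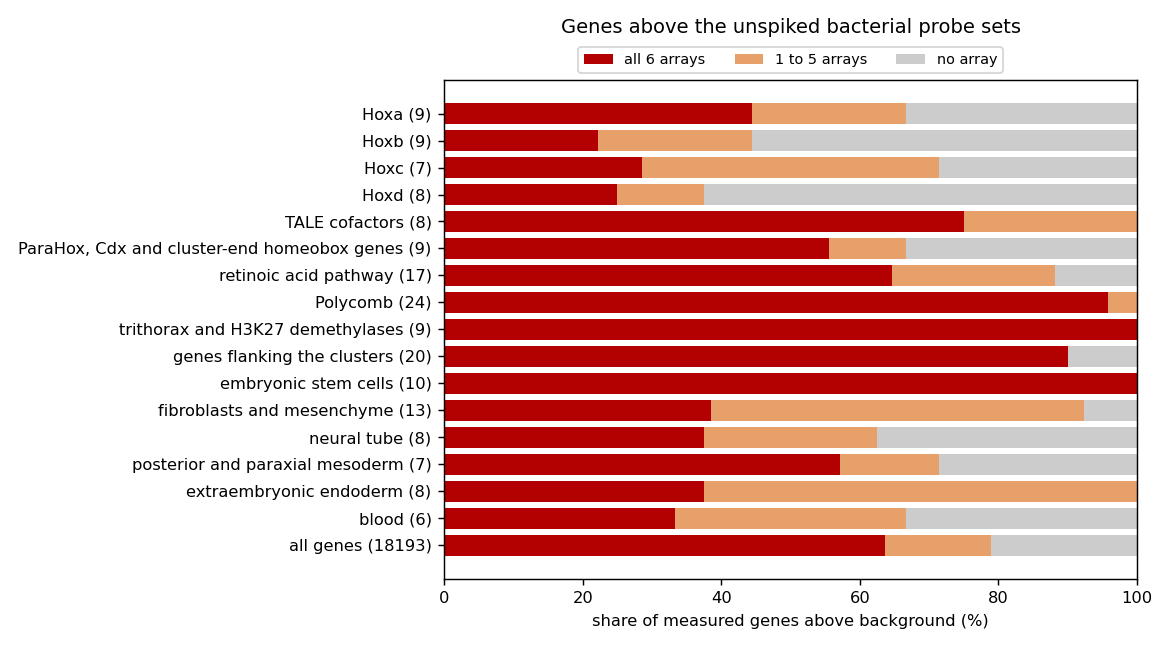
Share of measured genes (x axis, percent) above the highest unspiked bacterial probe set on all 6 arrays (red), 1 to 5 (orange) or none (grey). Bars are the Hox clusters, the context and marker lists and all 18193 genes, with the number of genes in parentheses. The hindbrain inducers Egr2 and Gdf11 are not shown. The Hoxa to Hoxd bars hold 4, 2, 2 and 2 genes in red, while Polycomb holds 23 of 24 and the flanking genes 18 of 20.

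Inhibition of the Activin/Nodal receptors for 24 h was compared with control to ask which transcripts rest on the cells' own signal. Hoxd9, a posterior gene of limb and lumbar patterning, was the Hox gene with the lowest value relative to control. Its intensities were 150 and 126 in control, 125 and 144 after activin, and 71 and 65 after SB431542. Both SB431542 arrays lay below all 4 others, and control and activin arrays overlapped. Its mean log2 intensity was 7.10 ± 0.18 (SD, n = 2) in control and 6.09 ± 0.09 after SB431542, a difference of −1.02 (SE 0.15, 95% interval −1.40 to −0.63), 2.02-fold lower. By limma at default settings over all 45037 probe sets it did not pass (adjusted p = 0.174). With a prior variance that follows intensity, estimated robustly (called the intensity trend below), Hoxd9 fell by limma (adjusted p = 0.0027), and it stayed past the threshold with any 1 array left out (limma adjusted p from 0.0023 to 0.0415).

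Called Hox genes were few. Default limma called 0 of 33 Hox genes and 0.0155% of all probe sets. At an unadjusted limma p under 0.05 stood 9 Hox genes (27.3%), a larger share than the 13.7% of all genes. The difference between these shares was not tested. By the intensity trend 1 of 33 passed, Hoxd9, or 3.03%, where 4.98% of all probe sets passed, 1.6% lower and 3.38% higher. With 1 probe set per gene, as for the Hox genes, 1179 of 18193 genes passed. Among genes with a mean within the Hox range it was 223 of 10175. Groups that did not overlap were found for 16 Hox genes (48.5%), 6 higher and 10 lower, against 46.3% of all genes, 23.9% higher and 22.4% lower. This share without overlap is near that of all genes. The median difference of the 33 was −0.10, against 0.00 for all genes, with 22 below control. The unspiked bacterial probe sets had a median of −0.15 in the same comparison, with 20 of 27 below control. For the 15 Hox genes at background throughout the median was −0.27. The part of that background shift in the Hox values was not tested.

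The neighbours of Hoxd9 lay on the same side. Hoxd8, a central gene, read 41 and 51 in control, 40 and 58 after activin, and 32 and 30 after SB431542. It differed from control by −0.56 (SE 0.22) and did not pass (limma adjusted p = 0.381, and 0.451 by the intensity trend). Its SB431542 values exceed the highest bacterial values of their arrays, 31 and 25, only narrowly, so the size of the difference is limited by background. A second Hoxd8 probe set read 35 and 30 in control, 25 and 25 after activin, and 22 and 14 after SB431542, a difference of −0.88 from control that did not pass either (limma adjusted p = 0.146 by the intensity trend). On the other side, Hoxd10 read 12 and 12, 11 and 13, and 9 and 8 in the same order. These values lie within the bacterial range, so they bear on background as much as on Hoxd10. A probe set of Hoxd3os1, an antisense transcript at Hoxd3 picked after its values were seen, read 23 and 18 in control, 20 and 15 after activin, and 13 and 14 after SB431542. Its second probe set read 18 and 12, 13 and 13, and 12 and 13 in the same order, with groups that overlap, and both were above background on 0 arrays.

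As deposited, 8 of 8 Hoxd genes had a mean below control after SB431542, but 6 of 8 after a repeated quantile normalization. They ranged from −1.02 for Hoxd9 to −0.0050 for Hoxd13, with a median of −0.33. In the other clusters 4 of 9 Hoxa, 6 of 9 Hoxb and 4 of 7 Hoxc genes were below control, and 50.3% of all genes. Of the 8 Hoxd genes, 5 were at background on every array, and no difference between clusters was tested. Genes on either side of the cluster lay both above and below control. Mtx2, a mitochondrial outer membrane protein beside Hoxd1, read 1071 and 955 in control and 1062 and 1045 after SB431542, a difference of 0.06 (SE 0.13). Lnpk, an endoplasmic reticulum protein beyond Hoxd13, differed by −0.11 (SE 0.15). Evx2, a homeobox gene next to Hoxd13, was at 0.77 (limma adjusted p = 0.246 by the intensity trend), with 45 and 37 in control and 55 and 88 after SB431542.

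**Figure D3:**
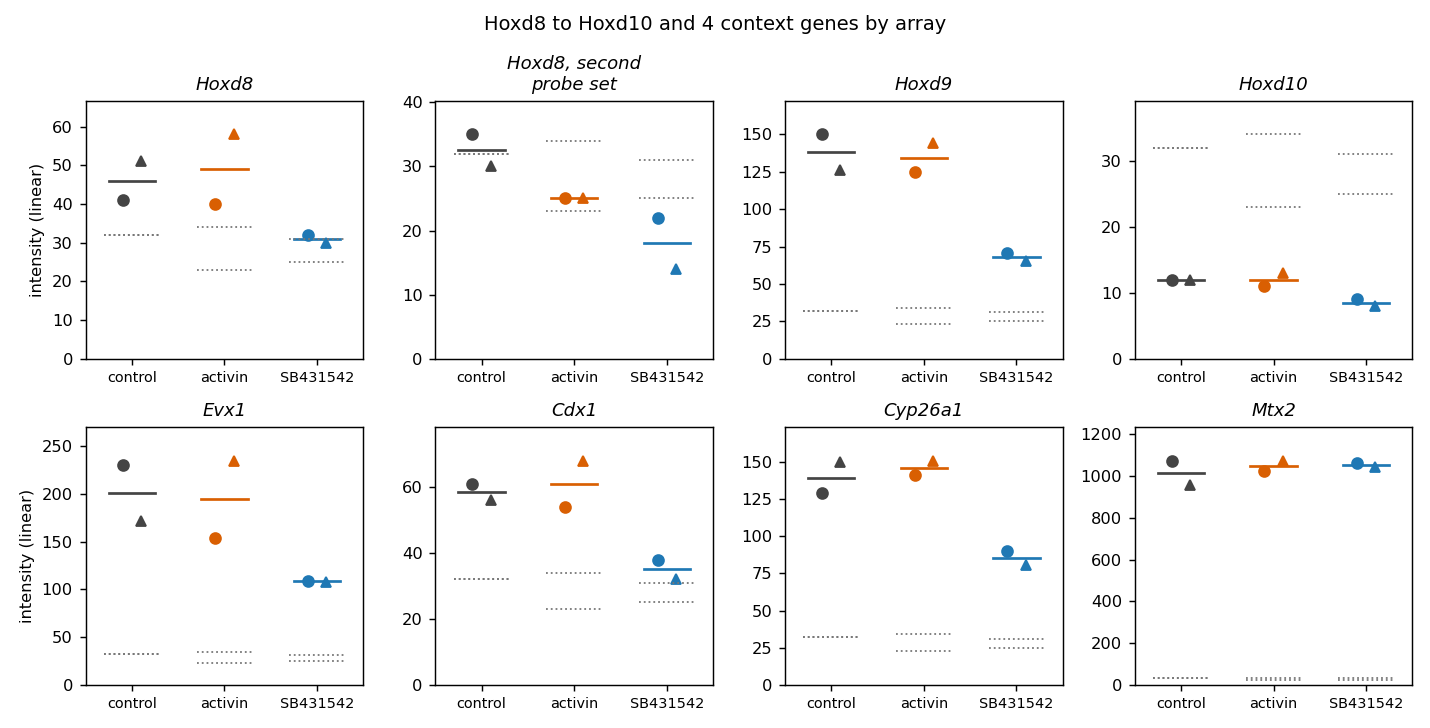
Deposited intensity on a linear scale from 0 (y axis) of Hoxd8 with its second probe set, Hoxd9, Hoxd10 and 4 context genes in control, activin and SB431542 arrays (x axis). Circles are replicate 1, triangles replicate 2, bars group means, and dotted lines the highest unspiked bacterial value of each array, which the Hoxd9 values exceed throughout and the Hoxd10 values never reach.

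On the higher side after SB431542 stood Hoxa7, Hoxa3 and Hoxb3, none past either test. Hoxa7, a central gene of the trunk, read 76 and 68 in control, 99 and 119 after activin, and 97 and 119 after SB431542. Both treated groups lay above both control arrays, by 0.59 after activin and 0.58 after SB431542 (SE 0.17 for each). These share the control arrays, and neither passed (limma adjusted p = 0.789 and 0.301, and 0.536 and 0.182 by the intensity trend). Hoxa3 read 52 and 61 in control, 35 and 56 after activin, and 94 and 70 after SB431542. Its SB431542 values were the highest, at 0.53 over control (SE 0.28, limma adjusted p = 0.480), while its 3 other probe sets were at 0.05, −0.17 and −0.27. Hoxb3, a hindbrain gene, read 51 and 36 in control, 51 and 36 after activin, and 60 and 59 after SB431542, 0.47 over control (SE 0.24). Its replicate arrays in control and activin differ as much as the groups do.

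Hoxc9, above background on all 6 arrays, was at −0.50 from control after SB431542 and did not pass (SE 0.41, limma adjusted p = 0.644). Its 2 control arrays read 230 and 96. The other low values given here were near background. Hoxb13, the most posterior Hoxb gene, known from prostate and tail, read 36 and 34 in control, 22 and 40 after activin, and 24 and 15 after SB431542. The difference of −0.88 from control (SE 0.35) did not pass (limma adjusted p = 0.384), and did with the array medians made equal (limma adjusted p = 0.0440). It ends below the bacterial maximum on both SB431542 arrays. Hoxb2, a hindbrain gene, read 35 and 44, 24 and 32, and 28 and 25 in the same order, and was at −0.57 (SE 0.20, limma adjusted p = 0.351). Hoxc8, a central gene at background on all arrays, read 16 and 17, 17 and 16, and 12 and 10, a difference of −0.59 (SE 0.14) that did not pass (limma adjusted p = 0.252, and 0.139 by the intensity trend). Hoxb7, likewise at background, read 26 and 22, 20 and 20, and 19 and 19, at −0.33 (SE 0.13). Hoxb9, at background on all arrays, was higher after SB431542, at 28 and 23 against 15 and 18 in control and 15 and 15 after activin. That difference of 0.63 (SE 0.16) was the highest of the 33 and did not pass (limma adjusted p = 0.266, and 0.244 by the intensity trend).

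**Figure D4:**
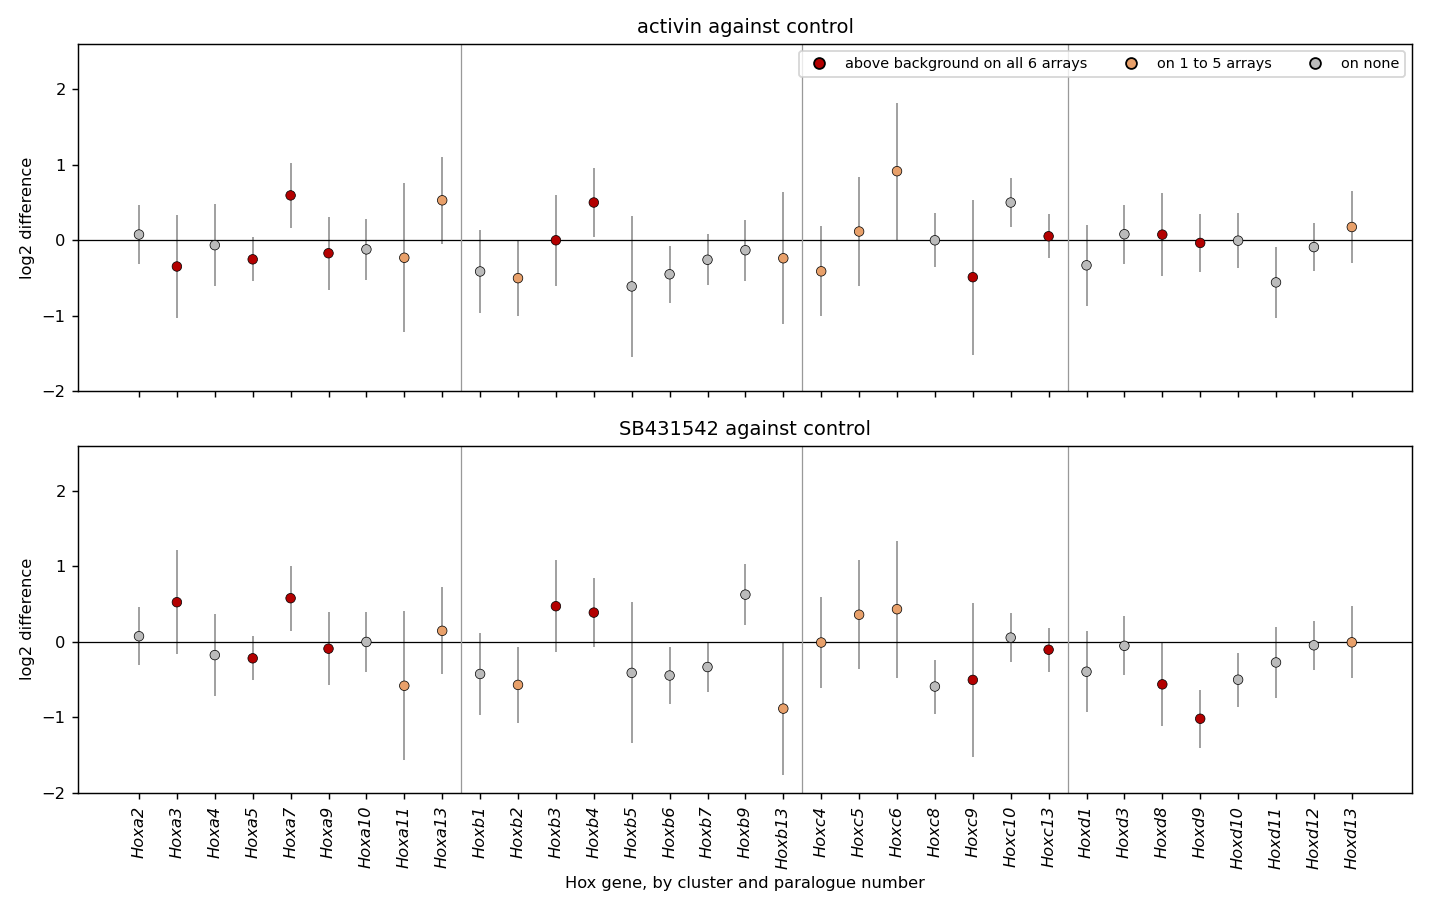
Log2 difference from control (y axis) of each Hox gene (x axis) after activin (top) and SB431542 (bottom), with 95% limma intervals, coloured by the number of arrays above background. After SB431542 Hoxd9 lies lowest at −1.02 and 8 Hoxd genes lie below 0 (6 after a repeated quantile normalization), while after activin Hoxd9 lies at −0.04.

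Activin for 2 h was compared with control to ask how the genes respond to added ligand, and no Hox gene passed. The default fit called 0 of 33 and 0% of all probe sets. At an unadjusted limma p under 0.05 stood 6 Hox genes (18.2%) and 5.24% of all genes, shares that were not tested. The intensity trend also called 0 of 33, against 0.215% of all probe sets. Groups did not overlap for 12 Hox genes (36.4%), 5 higher and 7 lower, where 30.1% of all genes had such groups, 14.9% higher and 15.2% lower. The median difference was −0.09, with 11 genes above control, 20 below it and 2 level with it, beside −0.11 for the unspiked bacterial probe sets and −0.01 for all genes. Hoxd9 was at −0.04 (95% interval −0.42 to 0.35), which leaves out a change of the size seen with SB431542. The durations differ, at 2 h and 24 h.

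The most positive value after activin was that of Hoxc6, a central gene of the thorax. Its probe set read 42 and 21 in control, 64 and 49 after activin, and 46 and 35 after SB431542. The 2 control arrays differ more than the groups do, and 0.92 (SE 0.36) did not pass (limma adjusted p = 0.805). The other 2 Hoxc6 probe sets were at 0.16 and −0.26. Hoxb4, a central gene used to expand blood stem cells, read 40 and 37 in control, 47 and 63 after activin, and 47 and 54 after SB431542, 0.50 over control after activin (SE 0.18, limma adjusted p = 0.793). With both of its probe sets averaged this became −0.017. Hoxc9, a posterior gene of the thorax, was at −0.49 (SE 0.41), from 230 and 96 in control, 101 and 111 after activin, and 117 and 94 after SB431542. That value rests on control replicate 1. Without it the difference was 0.14, and without control replicate 2 it was −1.12 and passed by the intensity trend (limma adjusted p = 0.0207).

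By the probe set that stood for each, Hoxa5, Hoxa9 and Hoxc13 differed little between groups. Hoxa5 read 187 and 187, 159 and 155, and 157 and 165 in control, activin and SB431542, at −0.25 and −0.22 from control (SE 0.12 for each). Hoxa9, known in blood stem cells and leukaemia, read 112 and 91, 78 and 103, and 91 and 99. Its 95% interval for SB431542 against control was −0.57 to 0.39. The second Hoxa9 probe set, above background on 3 arrays, read 39 and 17, 33 and 36, and 16 and 16 in the same order. It was at −0.69 for SB431542 against control and at 1.11 for activin against SB431542. Neither difference passed (limma adjusted p = 0.341 and 0.113 by the intensity trend). Hoxc13, a gene of hair and nail, read 65 and 66, 66 and 70, and 61 and 61, with an interval of −0.39 to 0.19.

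Set directly against each other, the activin and SB431542 groups need no control array, but the SB431542 arrays are those already used above. Hoxd9 was higher after activin by 0.98 (SE 0.15, 95% interval 0.60 to 1.37), 1.97-fold. It did not pass by default (limma adjusted p = 0.235) and did by the intensity trend (limma adjusted p = 0.0071). The latter call was lost without activin replicate 2 (limma adjusted p = 0.0864) or SB431542 replicate 2 (0.102). Default limma called 0 of 33 Hox genes and 0.02% of all probe sets. At an unadjusted limma p under 0.05 stood 7 Hox genes (21.2%) and 10.3% of all genes, shares that were not tested. The intensity trend called 1 of 33, Hoxd9, and 2.27% of all probe sets, 0.802% higher and 1.47% lower. With 1 probe set per gene it called 614 of 18193 genes, and 142 of the 10175 with a mean within the Hox range. Hoxd8 was higher by 0.64 (SE 0.22, limma adjusted p = 0.504), and Hoxc6 by 0.48 (SE 0.36). Hoxa3 was lower, at −0.87 (SE 0.28, limma adjusted p = 0.473), as were Hoxb3 at −0.47 and Hoxa9 at −0.08. Groups did not overlap for 15 Hox genes (45.5%), 11 higher and 4 lower, against 42.4% of all genes, 19.7% higher and 22.8% lower. Of the 27 unspiked bacterial probe sets, 16 had a higher and 7 a lower mean after activin.

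Genes that act on the clusters, lie beside them, act with Hox proteins or are related homeobox genes were read in the same arrays from lists of context genes. In these lists default limma called 0 genes in all 3 comparisons and the intensity trend none after activin against control. Over all 18193 genes the intensity trend called 1179 for SB431542 against control and 614 for activin against SB431542. Of the 11577 genes above background on all 6 arrays it called 1105 and 577. No list was tested against these shares. Among the ParaHox, Cdx and cluster-end homeobox genes, 8 of 9 were below control after SB431542. So were 50.3% of all genes and 20 of 27 unspiked bacterial probe sets. Of the 9 homeobox genes 3 were above background on no array, and 1 fell by the intensity trend. That was Evx1, an even-skipped homeobox gene of the primitive streak at the Hoxa13 end of the Hoxa cluster, which read 230 and 172 in control, 154 and 235 after activin, and 109 and 108 after SB431542. Its difference was −0.87 (SE 0.25, limma adjusted p = 0.294 by default and 0.0048 by the intensity trend). Cdx1, which activates Hox genes downstream of Wnt and retinoic acid, was at −0.75 (SE 0.17) and did not pass (limma adjusted p = 0.214 by the intensity trend). Cdx2 was at −0.11 (SE 0.29).

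In the retinoic acid pathway 3 of 17 passed by the intensity trend after SB431542. Cyp26a1, which degrades retinoic acid, fell by 0.70 on the log2 scale (limma adjusted p = 0.0387 by the intensity trend), from 129 and 150 to 90 and 81. Rdh10, a dehydrogenase in retinoic acid synthesis, fell by 0.62 (0.0011 by the same test), and Crabp2, a retinoic acid binding protein, rose by 0.54 (0.0325). Cyp26a1 and Rdh10 also passed between activin and SB431542, and the receptor Rara was higher after activin than after SB431542 by 0.59 (limma adjusted p = 0.0294 by the intensity trend). Of 24 Polycomb genes 2 rose after SB431542 by that test, which called 1105 of the 11577 genes above background on all 6 arrays. The methyltransferase Ezh2, at 2528 and 2385 in control and 3245 and 3101 after SB431542, rose by 0.37 (limma adjusted p = 0.0032), and Pcgf5, a subunit of variant PRC1, by 0.47 (0.0050). Men1, a partner of the methyltransferase Kmt2a that maintains Hox expression, rose by 0.41 (limma adjusted p = 0.0306), the single call among 9 trithorax and demethylase genes. Of 8 TALE cofactors 7 were above control and Pbx2 rose, by 0.47 (limma adjusted p = 0.0115), with Meis2 at 0.70 (0.0639). Of the 20 flanking genes Cbx1 and Calcoco2 rose, by 0.41 and 0.66 (limma adjusted p = 0.0066 and 2.98e-05), both beside Hoxb, while Atp5g3 and Atp5g2 were at −0.11 and 0.01. Egr2 and Gdf11, known as regulators of hindbrain and posterior Hox genes, were at −0.16 and −0.31 and did not pass.

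Markers of embryonic stem cells and of other cells also differed after SB431542. Of the 10 stem cell markers 6 passed by the intensity trend, where 1105 of the 11577 genes above background on all 6 arrays did. Pou5f1 fell by 0.43, Tfcp2l1 by 0.42, Dppa5a by 0.28, Tdgf1 by 0.26 and Nanog by 0.24, and Klf4 rose by 0.50 (limma adjusted p from 0.00015 to 0.0408). Of these Pou5f1, Dppa5a, Tdgf1, Nanog and Klf4 also passed between activin and SB431542. Summed intensities of the list were 51488 to 52769 in control, 52558 to 52954 after activin and 45901 to 46598 after SB431542. Of 13 fibroblast and mesenchyme markers 9 were below control, and the summed intensity was 4366 to 4550 in control, 4253 to 4418 after activin and 2942 to 3291 after SB431542, most of it Vim. Col1a1 fell by 0.98 and Vim by 0.58 (limma adjusted p = 0.0172 and 4.84e-06 by the intensity trend). Of that list Lum was at background on every array and Col3a1 and Twist1 above it on 1 array each. Of 7 posterior mesoderm markers 6 were below control, with sums of 1045 to 1081 in control, 874 to 989 after activin and 830 to 843 after SB431542, and 0 passed. Of 8 neural tube markers 4 were above control and 4 below it, down to −0.67, and 3 were above background on no array. Pax6 and Irx3 rose, by 0.74 and 1.09 (limma adjusted p = 0.0083 and 0.0127 by the intensity trend), and Olig2 stayed at 9 or 10. Sums of the extraembryonic endoderm markers were 396 to 471 in control and 401 to 410 after SB431542, and of the blood markers 184 to 246 and 207 to 208. The part of the stem cell markers and of these other cells in the Hoxd9 value was not tested.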

How the data were processed

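RNA from 6 samples, 2 per group, was primed with oligo-dT and carried a biotin label, per the labels' protocols. The deposited intensities are linear and whole numbers, and RMA (background correction, quantile normalization and probe set summary) is named without a version in the submitters' processing notes. Software and genome build were not given in the sources used here. The design text names the A version of the array, while the table holds the probe sets of the larger version.

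Intensities were converted to log2 with no further normalization. The 64 control probe sets were left out, leaving 45037, of which 34945 carry 1 symbol, 932 several and 9160 none. Entrez identifiers of all 33 members gave the same symbol in the RefSeq table of GRCm38.p6, which also gave gene order and promoters. Rounding makes steps of the dimmest values coarse. Array medians ran from 37 to 49.

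All arrays entered 1 fit of group means (limma 3.58.1 in R 4.3.3), followed by eBayes with its defaults (3 residual and 2.51 prior degrees of freedom), adjusted by Benjamini-Hochberg over 45037 probe sets at 0.05. The alternative with an intensity trend and robust estimation is given beside it. The fit was also run on simulated data with independent noise for each probe set. Those data lack the rounding of dim values, so no conclusion is drawn from them here. The number of arrays limits the precision.

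Members, lists and tests were chosen with earlier results of these data known. Genes given by array are Hox genes above background on all 6 arrays, those past either test, and the 3 highest and 3 lowest differences per comparison among Hox genes above background on both arrays of a group. Of the context and marker lists, genes past either test are named, and of the context lists the 3 with the highest mean on the arrays. Others named beyond these, such as Hoxd10, Hoxb7, Hoxc8 and Hoxb9, were chosen after their values were seen, and Hox-shared probe sets were not used. Alternatives tried were the intensity trend, 2 scalings between arrays, an offset of 16, a filter on dim probe sets, 2 other choices of probe set, other background levels, the replicate number as a block and each array left out.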

Additional observations from a re-analysis of the deposited data

How the results depend on the processing

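With columns shifted to 1 median, 2 Hox genes passed for SB431542 against control, Hoxd9 and Hoxb13 (limma adjusted p = 0.0116 and 0.0440), and 1 for activin against SB431542, Hoxd9. With an intensity trend and robust estimation 1 passed in each of these, Hoxd9, and likewise with a replicate block added to the trend. Leaving out 1 array under default limma gave 0 to 0 called Hox genes in every comparison. Leaving out 1 array under the trend, chosen after seeing the data, gave 1 to 2 for SB431542 against control, 0 to 1 for activin against SB431542 and 0 to 1 for activin against control. The upper values in the comparisons with control come from Hoxc9 without control replicate 2. Correlations of same-numbered deviations were −0.14, 0.02 and −0.09. With 2 arrays a group these cannot show whether the replicate numbers paired the arrays. The replicate block alone called 0 Hox genes in all 3 comparisons, as did crossed activin numbers.

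Hoxd9 kept its direction in every setting, from −1.14 to −0.87 for SB431542 against control. When each gene was given the mean of its probe sets, the sign turned for Hoxb4 after activin (−0.017) and for Hoxa9 in activin against SB431542 (0.51). Leaving out 1 array turned it for Hoxc9 after activin (−1.12 to 0.14) and Hoxa9 in activin against SB431542 (−0.28 to 0.12). The cause was not tested beyond the values of each array. Averaging also left 6 Hox genes above background on all arrays. Other settings gave 9 to 13, with 9 when _x_at and _s_at probe sets were passed over and 9 against the highest bacterial value of all arrays. Against the 95th percentile of the bacterial probe sets it was 13, and leaving out 1 array gave 10 to 12. The median Hox difference moved by less than the SD of 0.15 between replicate arrays in all settings. That SD is larger than the medians themselves, so it does not show that their signs held. In 1 setting the median for activin against SB431542 turned to −0.005, and in 1 that for activin against control reached 0. Values near the bacterial probe sets have only a bound, which limits 23 of the 33 genes.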

Other observations

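Outside the coding Hox genes, the antisense transcript Hoxb5os read 66 and 63 in control, 44 and 67 after activin, and 56 and 54 after SB431542, above background on all 6 arrays. Hoxb5 itself was at background on every array, with 14 and 30, 12 and 15, and 17 and 14. Both probe sets of Hoxa11os stayed at background. These antisense genes were chosen after their values were seen.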
